A study of Mus musculus with 29 samples.

Results

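The 9 genes described here encode the cyclins and kinases that carry a cell through G1, and a subunit of the ubiquitin ligase that removes one of their inhibitors. They are the D cyclin genes Ccnd1, Ccnd2 and Ccnd3, their kinase genes Cdk4 and Cdk6, the E cyclin genes Ccne1 and Ccne2, their kinase gene Cdk2, and Skp2. They were chosen by name. Each was represented by the probe set that carries only its symbol and has the highest mean over the 27 transfected arrays. All 9 were measured, each by 1 probe set, among 19938 genes in all. Expression was read on 29 arrays of C2C12, an established mouse myoblast line that divides in serum-rich medium and fuses into myotubes when it differentiates. Proliferating cells at passage 27 received 50 nM of a synthetic mimic of miR-34a, miR-1, Let-7b, miR-365, miR-22, miR-145 or miR-29a for 36 h, in 3 transfections each. Control cells received AllStar, a negative control oligonucleotide, at the same dose and time, also in 3 transfections, and each control transfection had a technical repeat. Untransfected terminally differentiated cells, called myotubes below, and untransfected proliferating cells at 70% confluence, called myoblasts below, had 1 array each. All groups are of 1 cell line, and the p-values measure the spread between its transfections.

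In G1, the phase before DNA synthesis, D cyclins bind Cdk4 or Cdk6 and the kinases phosphorylate the retinoblastoma protein and its relatives. This frees E2F transcription factors, which switch on genes of S phase, among them the E cyclins, whose complexes with Cdk2 open DNA replication. Skp2 is the substrate-binding subunit of an SCF ubiquitin ligase that marks p27, a Cdk inhibitor encoded by Cdkn1b, for destruction. In skeletal muscle, myoblasts leave the cell cycle before they fuse. A microRNA pairs through the bases of its seed with messenger RNAs, usually in the 3' untranslated region, and lowers their level or their translation.

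The mature sequences show how unlike the mimics are. Of the 7 microRNAs, 5 matched mature mouse sequences in RefSeq (GRCm38.p6). The labels name no arm, and the customary arm is shown, 5' to 3', with the seed, bases 2 to 8, in capitals. The 5 seeds are all different, so none of these mimics shares a seed with another. On GRCm38.p6 they are encoded at chr15:85707325-85707346 (+), chr11:75463772-75463793 (+), chr6:31062673-31062694 (-) and chr4:150068473-150068494 (+), in the order Let-7b, miR-22, miR-29a and miR-34a with the strand in brackets, and miR-365 at chr11:79726467-79726488 (+) and chr16:13453895-13453916 (+).
mmu-miR-34a-5p: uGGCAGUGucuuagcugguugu
mmu-miR-29a-3p: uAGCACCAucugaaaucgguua
mmu-miR-22-3p: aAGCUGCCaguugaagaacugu
mmu-miR-365-3p: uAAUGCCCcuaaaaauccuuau
mmu-let-7b-5p: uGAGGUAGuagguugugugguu

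The arrays held log2 values from 2.35 to 14.65, with array medians from 7.24 to 7.39 and a precision limited by how many arrays there are. Levels of different genes come from different probes and are not set against each other. The mean of 7 myoblast markers, such as Myod1 and Des, lay between 10.95 and 11.37 in the transfected cells, and the means of endothelial, leukocyte and adipocyte markers between 5.89 and 6.80, near the median of 6.67 of probe sets with no listed gene. Single markers of these other cell types lay on both sides of that median, such as Cd68 with a mean of 8.18 and Ptprc with 5.65. The mean of the myoblast markers was 11.08 on the myoblast array and 11.20 on the myotube array, so it did not separate these states. The library miR-145 replicate 3 stood apart. Its mean over 7 measured interferon response genes was 10.90, against 7.61 and 7.39 in the other miR-145 replicates and 6.08 to 6.81 in the other transfections. Where leaving it out changed a call named here, the value without it is given. Over 10 myotube markers the control cells had means of 9.94 to 10.25, against 11.88 on the myoblast array, which therefore also stood apart.

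Cdk6 RNA fell under all 7 microRNAs, and each microRNA but Let-7b and miR-145 lowered at least 4 of the 9 genes. Of the 63 pairs of a gene and a microRNA, 31 were lower and 1 was higher than the control at an adjusted p under 0.05, in limma with Benjamini-Hochberg adjustment over all genes. Most genes fell under miR-365, 8 of the 9 and all but Ccnd3, where 8.33% of all genes fell and 11.7% rose. The median difference of the 9 genes was −0.53 on the log2 scale under miR-365, against −0.0018 over all genes. Under miR-1, 5 genes fell, the kinase genes Cdk6 and Cdk2, both E cyclin genes and Skp2, where 10.5% of all genes fell and 13.2% rose. miR-29a also lowered 5, which were Ccnd2, Cdk6, Ccne1, Cdk2 and Skp2, where 4.78% of all genes fell and 5.54% rose. With a block for replicate number, 3142 genes were called in all under miR-29a, against 2058 without it. Those lowered by miR-34a were Ccnd1, Cdk6, Ccne1, Ccne2 and Skp2, and Ccnd2 rose, where 6.06% of all genes fell and 5.62% rose.

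The median difference of the 9 genes was −0.74 under miR-1, −0.49 under miR-34a and −0.41 under miR-29a, and the corresponding medians over all genes were −0.0010, 0.02 and 0.01. Fewer of the 9 genes fell under miR-22, Let-7b and miR-145. miR-22 lowered Cdk6, Ccne1, Ccne2 and Skp2, where 5.67% of all genes fell and 8.82% rose. Let-7b lowered Cdk6 and Skp2, where 5.46% of all genes fell and 5.46% rose. The genes lowered by miR-145 were Cdk6 and Cdk4, where 3% of all genes fell and 3.85% rose. Without miR-145 replicate 3, Cdk6 was the one called, and 727 genes passed in all under miR-145, against 1365 with it. Medians of the 9 genes were −0.11, −0.16 and −0.04 under these 3 microRNAs, and −0.01, 0.01 and 0.04 over all genes. At an unadjusted p under 0.05, the number of the 9 genes that were higher was 1 under miR-22, 1 under miR-34a and 0 under the other 5. All 7 comparisons share the 3 control values, so they are not independent of each other. In bulk RNA, fewer cells that express a gene and less of its RNA per cell cannot be told apart.

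**Figure D1:**
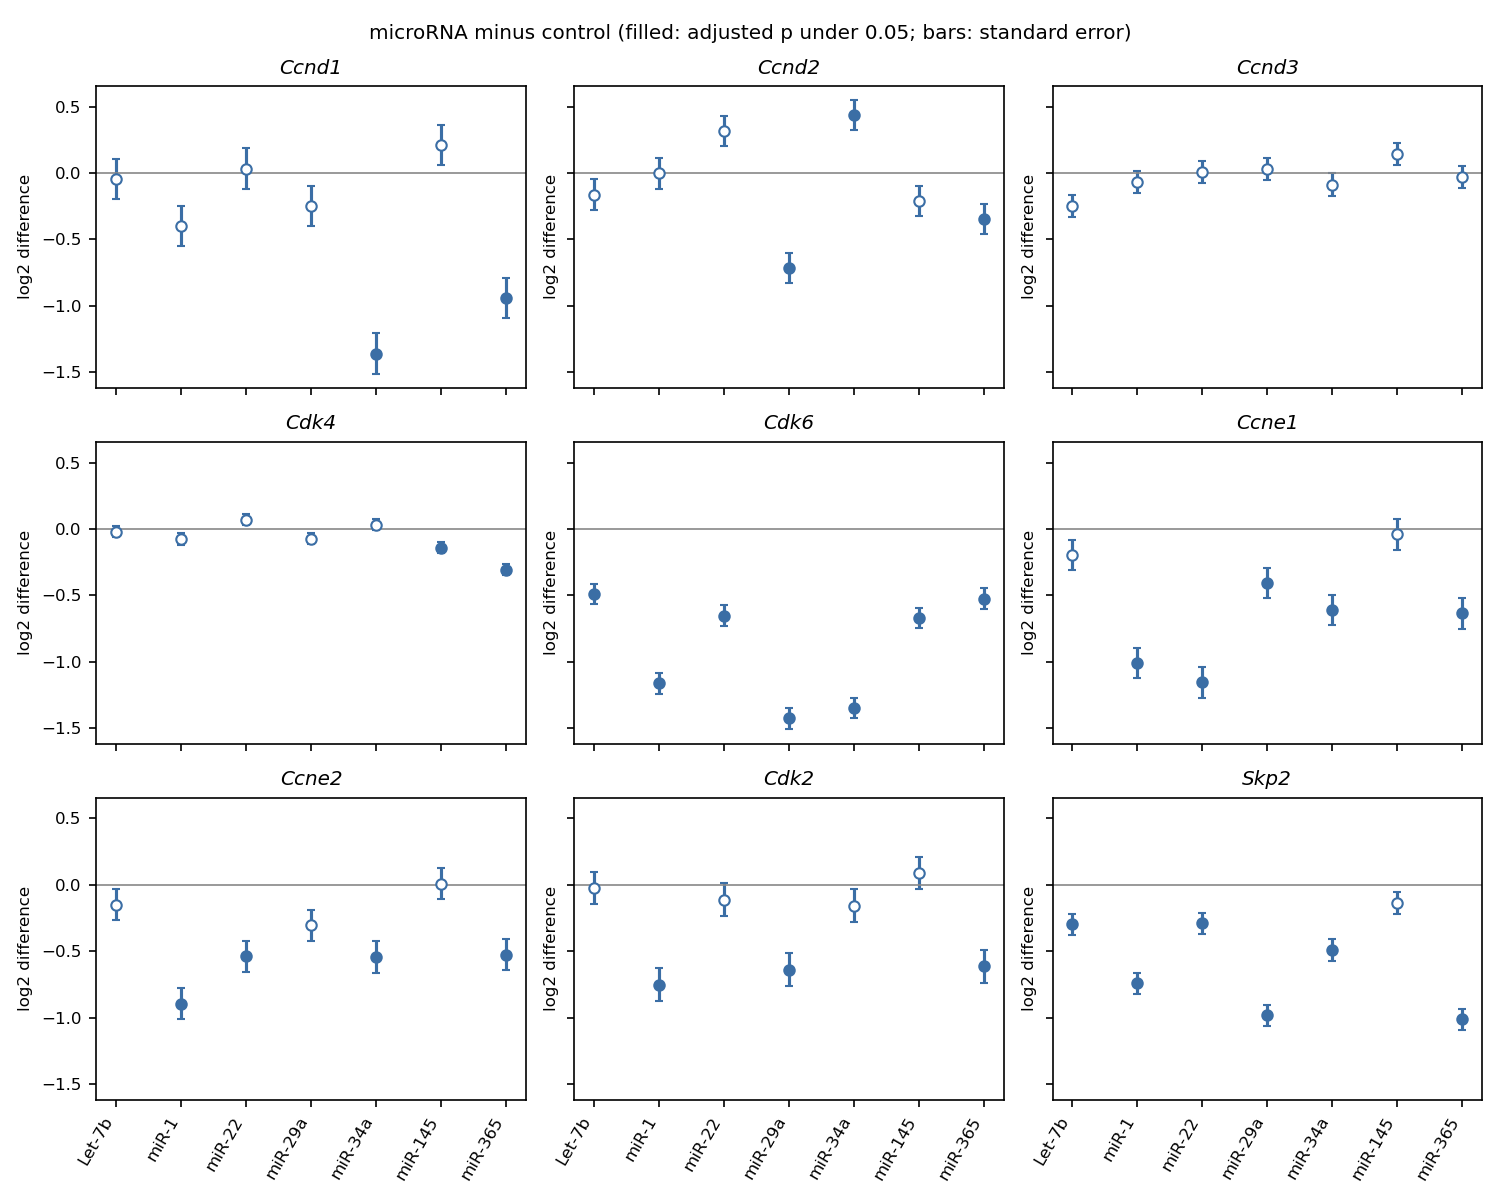
Difference from the control on the log2 scale (vertical axis, microRNA minus control) for each of the 9 genes under each of the 7 microRNAs (horizontal axis). Points are model estimates, bars are standard errors, and filled points passed an adjusted p of 0.05. Cdk6 is the one panel with all 7 points filled, and the filled Ccnd2 point under miR-34a is the one call above 0.

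Each microRNA was also set against the mean of the other 6, a comparison that uses no control array, and values in brackets here are limma's adjusted p. By this measure miR-1 and miR-365 cells each had 5 of the 9 genes lower, where 13.7% and 11.3% of all genes were lower, and 0 and 1 higher, where 15% and 15.8% were higher. The gene higher under miR-365 was Cdk6. miR-29a cells had 4 lower, where 8.26% of all genes were, and 0 higher, where 8.8% were. miR-34a cells had 2 lower, Ccnd1 and Cdk6, where 8.18% were, and 2 higher, Ccnd2 and Cdk4, where 5.9% were. The Cdk4 call was lost without miR-34a replicate 1 (0.0761) or 3 (0.0911). Among the 5 lower under miR-365, that of Ccnd2 was lost without miR-365 replicate 1 (0.108) or 2 (0.0757). The remaining microRNAs mostly had higher levels than the rest. Under miR-145, 0 genes were lower and 7 higher, where 8.59% and 10.3% of all genes were. One of the 7, Ccnd3, did not pass without miR-145 replicate 3 (0.16) or 2 (0.0728). Under Let-7b, 1 gene was lower, Ccnd3, and 6 were higher, where 10.3% and 8.19% were. Of these 6, 3 calls were lost without 1 Let-7b replicate, those of Ccnd1 without replicate 1 (0.144) or 3 (0.108), Ccne2 without replicate 2 (0.0657) or 3 (0.0849), and Cdk2 without replicate 1 (0.0861) or 3 (0.0673). Under miR-22, 1 was lower, Ccne1, and 5 higher, where 6.33% and 9.45% were, and Cdk2 was also higher with a block for replicate number (adjusted p = 0.0243). At an unadjusted p under 0.05, 0 of the 9 were higher under miR-1 and 1 under miR-29a, and 1 was lower under miR-145.

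Among the D cyclins, which bind Cdk4 and Cdk6, Ccnd1 and Ccnd2 changed, and no difference of Ccnd3 from the control passed in the model used here. Ccnd1 (chr7:144929931-144939831, build GRCm38.p6, as for all positions) had values of 10.88, 10.71 and 10.47 in miR-34a cells and 11.20, 11.09 and 11.04 in miR-365 cells, against 12.15, 11.98 and 12.01 in control cells. Every value of both microRNAs lay below every control value. Of all 19938 genes, between 1752 (miR-145) and 3034 (miR-1) lay wholly below the control in this way. Between 2815 (Let-7b) and 3939 (miR-365) lay wholly above it. Ccnd1 fell by 2.57-fold under miR-34a (log2 difference −1.36 ± 0.15, SE; adjusted p = 1.7e-06) and by 1.92-fold under miR-365 (−0.94 ± 0.15; adjusted p = 8.94e-05). The same 2 microRNAs were also below the mean of the other 6 microRNAs, with differences of −1.13 ± 0.12 (adjusted p = 3.23e-07) and −0.64 ± 0.12 (adjusted p = 0.000192). Between the 2, the mean under miR-365 was higher by 0.42 on the log2 scale, which did not pass (adjusted p = 0.0512) and passed without miR-145 replicate 3 (0.0483).

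miR-1 cells had Ccnd1 values of 11.63, 11.40 and 11.91, all below the control, with a difference of −0.40 ± 0.15 that missed the threshold (adjusted p = 0.0633). It passed under 6 alternative settings, with adjusted p from 0.00778 with a block for replicate number to 0.0453 without the lowest genes, and at 0.026 without miR-1 replicate 3. The miR-29a values were spread over a wide range, 11.94, 11.41 and 12.05, and overlapped the control. Let-7b, miR-22 and miR-145 cells also overlapped the control, with differences of −0.05 ± 0.15, 0.03 ± 0.15 and 0.21 ± 0.15. From the lowest mean to the highest, the order was miR-34a, miR-365, miR-1, miR-29a, Let-7b, control, miR-22 and miR-145, and the step from miR-365 to miR-1 was the one step between neighbours that passed (adjusted p = 0.00941).

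Ccnd2 (chr6:127125162-127152188) moved in both directions. Its values were 8.88, 8.86 and 9.02 in miR-29a cells, all below the control values of 9.59, 9.64 and 9.67, and it fell by 1.64-fold (−0.71 ± 0.11; adjusted p = 0.000158). In miR-34a cells the values of 10.04, 9.96 and 10.22 all lay above the control, and Ccnd2 rose by 1.35-fold (0.44 ± 0.11; adjusted p = 0.0121), so the 2 D cyclin genes changed in opposite directions under this mimic. This rise did not pass without miR-34a replicate 3 (adjusted p = 0.0885). Both microRNAs also differed from the mean of the other 6, miR-29a by −0.72 ± 0.09 (adjusted p = 2.78e-06) and miR-34a by 0.63 ± 0.09 (adjusted p = 2.05e-05). miR-22 cells had 9.92, 9.84 and 10.09, likewise above every control value, with a difference of 0.32 ± 0.11 that missed the threshold (adjusted p = 0.0685) and passed with a block for replicate number (adjusted p = 0.00207) and without miR-145 replicate 3 (0.0362). Against the mean of the other 6, Ccnd2 was higher under miR-22 by 0.48 ± 0.09 (adjusted p = 0.00033).

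The smallest Ccnd2 change that passed was under miR-365, with values of 9.21, 9.24 and 9.41 and a difference of −0.35 ± 0.11 (adjusted p = 0.0333). That call was lost without any 1 of the control replicates and without miR-365 replicate 1 or 2, with adjusted p between 0.0548 and 0.127. Let-7b, miR-1 and miR-145 cells had differences of −0.16 ± 0.11, −0.0036 ± 0.11 and −0.21 ± 0.11, and none passed. The order ran from miR-29a through miR-365, miR-145, Let-7b, miR-1, control and miR-22 to miR-34a, and the step from miR-29a to miR-365 was the one between neighbours that passed (adjusted p = 0.0201).

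Ccnd3 (chr17:47505051-47599689), the D cyclin tied to muscle differentiation in this line, varied little. Over the 21 microRNA values it ranged from 11.15 to 11.68, against 11.31, 11.57 and 11.53 in control cells. Let-7b cells, with 11.15, 11.28 and 11.23, were the one group wholly below the control, as 2695 of all 19938 genes were under Let-7b. The difference was −0.25 ± 0.08 (adjusted p = 0.0556). It passed under 6 alternative settings, with adjusted p from 0.00185 with a block for replicate number to 0.0491 with the first control arrays only, and at 0.0177 without control replicate 1. It passed as well against the mean of the other 6 microRNAs (−0.25 ± 0.06; adjusted p = 0.00608), a call lost without Let-7b replicate 1 (adjusted p = 0.0617). The other 6 differences from the control lay between −0.09 and 0.14, each with an SE of 0.08. In limma's F test over the 7 comparisons Ccnd3 had the highest adjusted p of the 9 genes, 0.019, and all 9 passed, where 49.4% of all genes did.

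Cdk6 (chr5:3341004-3531008), which encodes a kinase partner of the D cyclins, fell under every microRNA. The 6 control arrays, repeats included, held Cdk6 values from 11.66 to 11.75, and the 3 control values were 11.67, 11.71 and 11.71. The 21 microRNA values ran from 10.16 to 11.26, all below the control. Under a single microRNA, between 1752 and 3034 genes lay wholly below the control. Of all 19938 genes, 5 (0.0251%) were lower under all 7 microRNAs, and 4 without miR-145 replicate 3. The strongest decreases were under miR-29a, miR-34a and miR-1.

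miR-29a cells had Cdk6 values of 10.48, 10.17 and 10.16, which is 2.69-fold lower than the control (−1.43 ± 0.08; adjusted p = 1.61e-10). miR-34a cells had 10.44, 10.32 and 10.28, 2.55-fold lower (−1.35 ± 0.08; adjusted p = 2.53e-10). In miR-1 cells the values were 10.63, 10.43 and 10.54, 2.24-fold lower (−1.16 ± 0.08; adjusted p = 1.39e-09). These 9 values lay below every value of the other 4 microRNAs. Values of 11.04, 11.05 and 10.99 under miR-145 were 1.59-fold lower than the control (−0.67 ± 0.08; adjusted p = 8.89e-06). Without miR-145 replicate 3, the library with raised interferon response genes, the difference was −0.65 (adjusted p = 7.85e-05). miR-22 cells had 10.97, 11.17 and 10.99, 1.57-fold lower (−0.65 ± 0.08; adjusted p = 3.95e-06).

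The smallest decreases of Cdk6 were under miR-365 and Let-7b. miR-365 cells had 11.15, 11.12 and 11.25 (−0.52 ± 0.08; adjusted p = 3.22e-05), and Let-7b cells had 11.17, 11.26 and 11.19 (−0.49 ± 0.08; adjusted p = 0.000159). Even these were 1.44-fold and 1.40-fold lower than the control. The order from the lowest mean was miR-29a, miR-34a, miR-1, miR-145, miR-22, miR-365, Let-7b and control. Neighbours differed at the step from miR-1 to miR-145 (0.49; adjusted p = 4.35e-05) and from Let-7b to the control, while miR-29a and miR-34a differed by 0.08 (adjusted p = 0.658) and miR-34a and miR-1 by 0.19 (adjusted p = 0.0932). Against the mean of the other 6, Cdk6 was lower under miR-29a (−0.62 ± 0.06), miR-34a (−0.53 ± 0.06) and miR-1 (−0.31 ± 0.06) and higher under Let-7b (0.47 ± 0.06), miR-365 (0.43 ± 0.06), miR-22 (0.28 ± 0.06) and miR-145 (0.26 ± 0.06). All 7 of these passed, with adjusted p from 1.21e-07 to 0.00301, so the size of the decrease differed between microRNAs.

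Control cells had more Cdk6 RNA than untransfected myoblasts. Their mean was 11.70 ± 0.02 (SD, n = 3), which is 0.97 above the 10.72 of the 1 myoblast array, a difference with no test. The means of miR-145, miR-22, miR-365 and Let-7b lay above the myoblast value, and those of miR-29a, miR-34a and miR-1 below it. No other gene of the 9 stood as far from the myoblast array in the control cells, and the next was Ccne1 with 0.65. The part of transfection with the control oligonucleotide in these differences was not tested, since the myoblasts had 1 array and no mock transfection is among the samples used here.

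**Figure D2:**
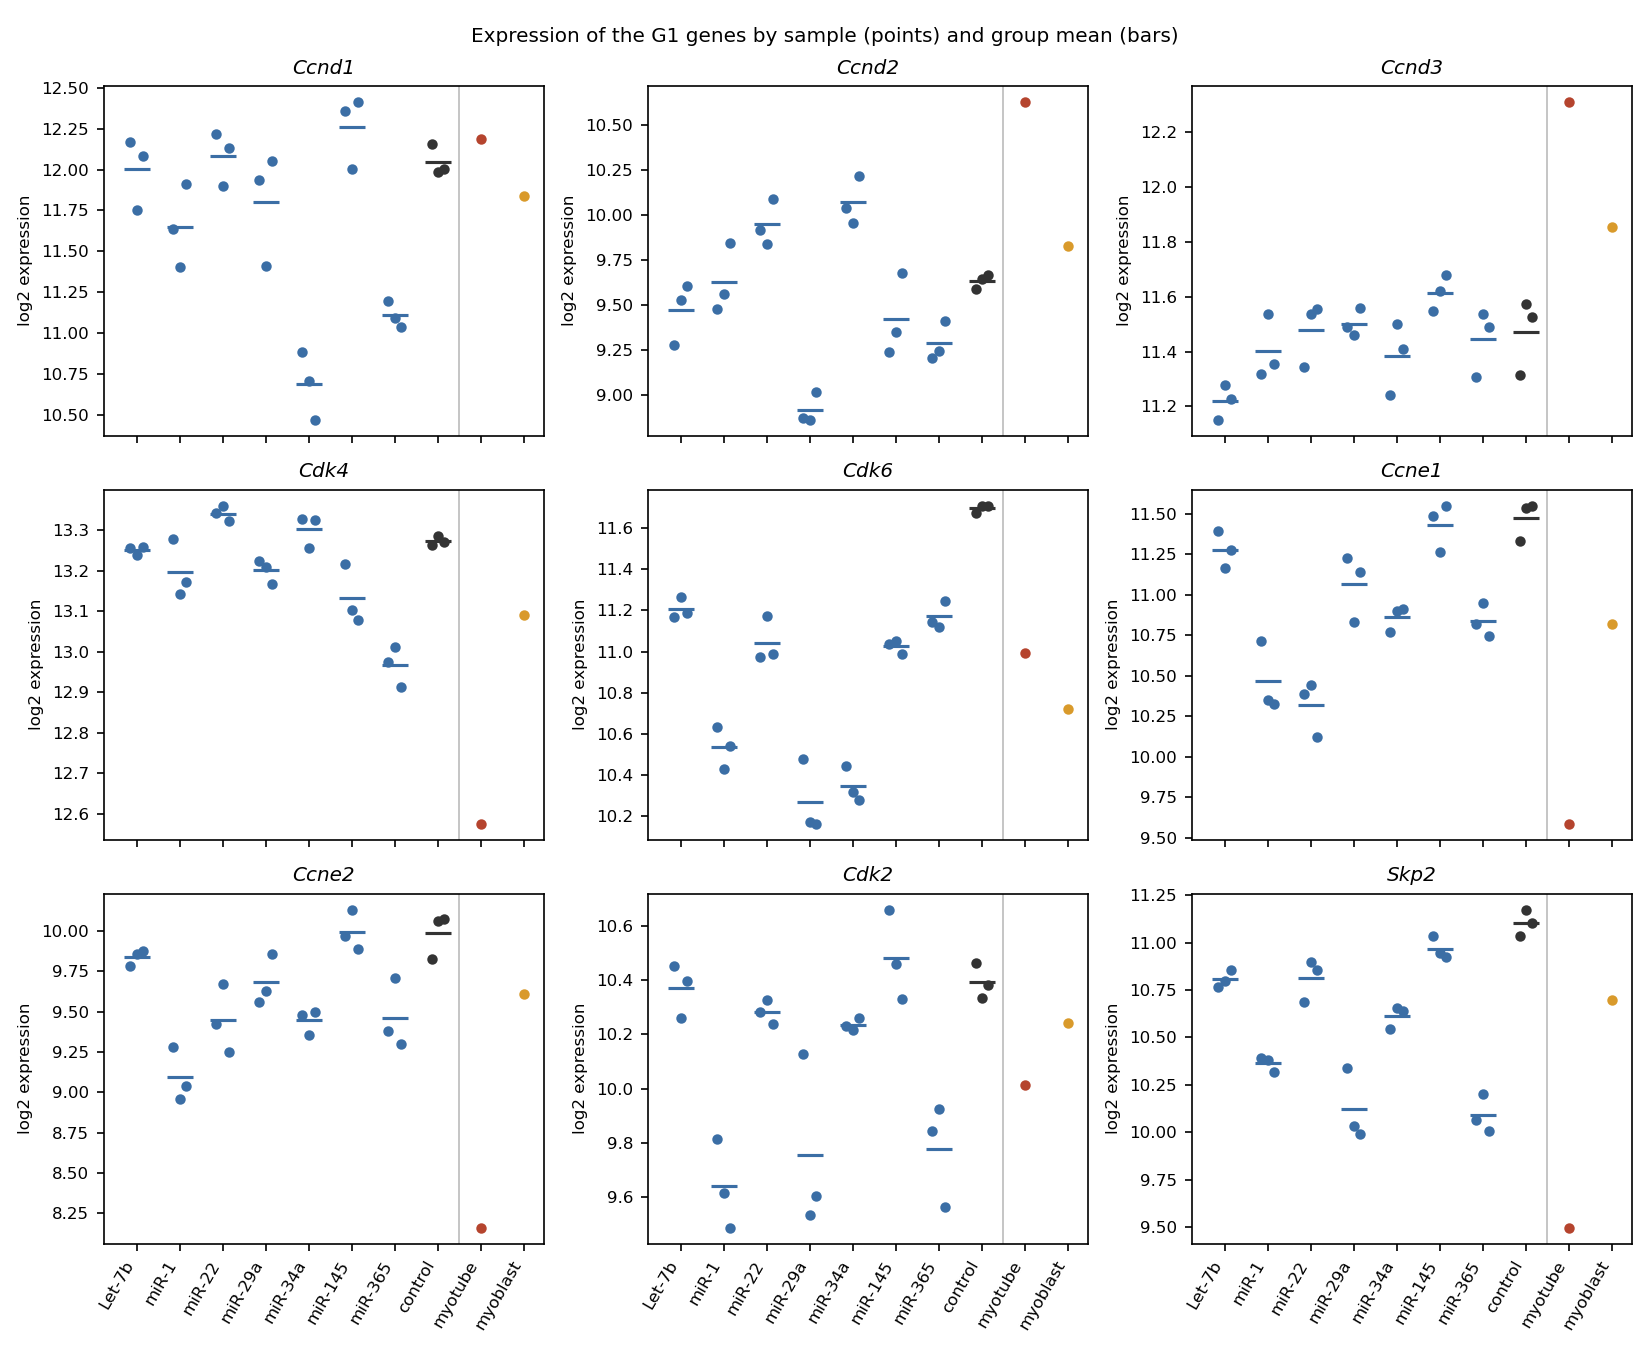
Log2 expression (vertical axis, scaled per gene) of the 9 genes in each sample. Points are the 3 values of each microRNA (blue) and of the control (black) and the single myotube (red) and myoblast (orange) arrays, and bars are means of 3. In the Cdk6 panel the 21 blue points lie between 10.16 and 11.26, below the black points, and the orange point lies among the blue ones.

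Cdk4 (chr10:127063535-127067288), the other kinase gene of the D cyclins, fell under miR-365 and, by a small margin, under miR-145. In miR-365 cells its values were 12.98, 13.01 and 12.91, against 13.26, 13.28 and 13.27 in control cells, and it fell by 1.24-fold (−0.31 ± 0.04; adjusted p = 1.05e-05). Cdk4 was lower under miR-365 than the mean of the other 6 as well (−0.27 ± 0.03; adjusted p = 7.66e-07). In miR-145 cells, 13.22, 13.10 and 13.08 gave a difference of −0.14 ± 0.04 that just passed (adjusted p = 0.0433). The call was lost without any 1 of the control replicates and without miR-145 replicate 2 or 3, with adjusted p between 0.0862 and 0.221, without the variance trend (0.159), and with only miR-145 and the control in the model (0.145). The other 5 differences from the control lay between −0.08 and 0.07, each with an SE of 0.04.

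The E cyclins bind Cdk2 at the end of G1, and both genes fell under miR-1, miR-22, miR-34a and miR-365. Ccne1 (chr7:38097984-38107490) had values of 10.39, 10.44 and 10.12 in miR-22 cells and 10.71, 10.35 and 10.32 in miR-1 cells, against 11.33, 11.53 and 11.55 in control cells. These are the 2 lowest groups, 2.23-fold lower under miR-22 (−1.16 ± 0.11; adjusted p = 2.77e-07) and 2.01-fold lower under miR-1 (−1.01 ± 0.11; adjusted p = 6.82e-07). Both were below the mean of the other 6 microRNAs, with differences of −0.67 ± 0.09 (adjusted p = 6.96e-06) and −0.50 ± 0.09 (adjusted p = 9.9e-05), and they differed from each other by 0.15 (adjusted p = 0.439).

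Ccne1 was also lower under miR-365, with 10.82, 10.95 and 10.74 (−0.64 ± 0.11; adjusted p = 0.000269), and under miR-34a, with 10.77, 10.90 and 10.91 (−0.61 ± 0.11; adjusted p = 0.000772). No value of these groups reached the lowest control value. Under miR-29a the values of 11.23, 10.83 and 11.14 lay below the control too, and the difference was −0.41 ± 0.11 (adjusted p = 0.0223). This call was lost without control replicate 2 (0.094), control replicate 3 (0.102) or miR-29a replicate 2 (0.175). Let-7b and miR-145 cells had differences of −0.19 ± 0.11 (adjusted p = 0.391) and −0.04 ± 0.11 (adjusted p = 0.896).

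Ccne2 (chr4:11190433-11204779) was lowest in miR-1 cells, with 9.28, 8.96 and 9.04, against 9.83, 10.06 and 10.08 in control cells. This is 1.86-fold lower (−0.90 ± 0.12; adjusted p = 4.07e-06). Against the mean of the other 6, miR-1 was the one microRNA with a decrease that passed (−0.55 ± 0.09; adjusted p = 4.16e-05). The differences under miR-34a, miR-22 and miR-365 were −0.14, −0.14 and −0.12 and did not pass. Next came 3 groups with nearly the same mean. Ccne2 values were 9.48, 9.36 and 9.50 under miR-34a (−0.54 ± 0.12; adjusted p = 0.00301), 9.42, 9.68 and 9.25 under miR-22 (−0.54 ± 0.12; adjusted p = 0.00252) and 9.38, 9.71 and 9.30 under miR-365 (−0.53 ± 0.12; adjusted p = 0.00208). The 9 values lay below the control, and the 3 means differed from their neighbours by at most 0.01. miR-29a, Let-7b and miR-145 did not pass, with differences of −0.31 ± 0.12, −0.15 ± 0.12 and 0.01 ± 0.12.

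Across the 24 values, Ccne1 and Ccne2 had a Pearson's r of 0.85, a description over samples that share groups and replicate numbers. miR-22 is where they parted most, since Ccne1 was −1.16 and Ccne2 −0.54 from the control. The difference between the 2 genes in their response was not tested.

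Cdk2 (chr10:128697938-128705051), the kinase gene of the E cyclins, fell under miR-1, miR-29a and miR-365. Its values were 9.82, 9.62 and 9.49 in miR-1 cells, 10.13, 9.54 and 9.60 in miR-29a cells and 9.85, 9.92 and 9.57 in miR-365 cells, against 10.46, 10.33 and 10.38 in control cells. All 9 lay below the control, though miR-29a replicate 1 was well above its 2 fellow replicates. The differences were −0.75 ± 0.12 (adjusted p = 5.98e-05), −0.64 ± 0.12 (adjusted p = 0.00112) and −0.61 ± 0.12 (adjusted p = 0.000763), from 1.53-fold to 1.68-fold lower. The 3 groups were also below the mean of the other 6, with differences of −0.51 ± 0.09, −0.38 ± 0.09 and −0.35 ± 0.09 (adjusted p = 0.000171, 0.00582 and 0.00642). That call was lost for miR-29a without its replicate 2 (0.121) or 3 (0.0909), and for miR-365 without its replicate 3 (0.123). Cdk2 in miR-22 and miR-34a cells was below every control value by a small margin, −0.11 ± 0.12 and −0.16 ± 0.12, and did not pass. Of all 19938 genes, 2720 and 2825 lay wholly below the control under these microRNAs. The cyclin genes of Cdk2 fell under both, and the difference between the genes was not tested. Let-7b and miR-145 gave −0.02 ± 0.12 and 0.09 ± 0.12.

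Skp2 (chr15:9111982-9155425) fell under all microRNAs but miR-145. Of all genes, 0.135% were lower under 6 or more. The lowest values were 10.06, 10.20 and 10.01 in miR-365 cells and 10.34, 10.03 and 9.99 in miR-29a cells, against 11.03, 11.17 and 11.10 in control cells. Skp2 was 2.02-fold lower under miR-365 (−1.01 ± 0.08; adjusted p = 5.74e-09) and 1.98-fold lower under miR-29a (−0.98 ± 0.08; adjusted p = 4.17e-08), and the 2 means were 0.03 apart (adjusted p = 0.863). miR-1 cells followed with 10.39, 10.38 and 10.32 (−0.74 ± 0.08; adjusted p = 3.82e-07), and then miR-34a cells with 10.55, 10.65 and 10.64 (−0.49 ± 0.08; adjusted p = 0.000197). These 2 groups each differed from the group before (adjusted p = 0.0284 and 0.026), so the decrease had graded sizes. Skp2 in miR-365 and miR-29a cells also lay below the mean of the other 6, with differences of −0.52 ± 0.06 (adjusted p = 7.8e-07) and −0.49 ± 0.06 (adjusted p = 4.71e-06). miR-1 cells did too (−0.21 ± 0.06; adjusted p = 0.0129), a call lost without miR-1 replicate 3 (0.097).

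In Let-7b cells Skp2 had 10.77, 10.80 and 10.86 and in miR-22 cells 10.69, 10.90 and 10.85, all below the control, with differences of −0.30 ± 0.08 (adjusted p = 0.0167) and −0.29 ± 0.08 (adjusted p = 0.0158). Both calls were lost when any 1 of several libraries was left out. With 1 replicate left out, the differences stayed between −0.33 and −0.26 under Let-7b and between −0.33 and −0.23 under miR-22. The Let-7b call was lost without control replicate 2 or 3 or Let-7b replicate 1 or 2 (adjusted p between 0.0521 and 0.0907). The miR-22 call was lost without control replicate 2 (0.0827), control replicate 3 (0.05) or miR-22 replicate 1 (0.102). miR-145 cells had 11.03, 10.95 and 10.93, which touched the control range (−0.14 ± 0.08; adjusted p = 0.402).

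miR-29a and miR-34a gave the 2 lowest Cdk6 means and differed from each other in 4 other genes. miR-29a cells were lower than miR-34a cells in Skp2 (−0.49 ± 0.08; adjusted p = 0.000152), Cdk2 (−0.48 ± 0.12; adjusted p = 0.009) and Ccnd2 (−1.15 ± 0.11; adjusted p = 2.55e-07), and higher in Ccnd1 (1.11 ± 0.15; adjusted p = 1.88e-05). Over the 21 pairs of microRNAs, the number of pairs that differed was 15 each for Ccnd2, Ccne1 and Skp2, 13 each for Ccnd1 and Cdk6, 12 each for Ccne2 and Cdk2, 10 for Cdk4 and 3 for Ccnd3, where 20.3% of all pairs of a gene and 2 microRNAs passed. Without miR-145 replicate 3, Ccnd2 had 16 such pairs and Ccne1 14, and Ccnd1 lost 1 and gained 1.

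Genes of dividing cells moved with some of these decreases and not with others. Of 11 measured proliferation genes, such as Mki67 and Mcm2, 11 fell under miR-1, 9 under miR-365, 6 under miR-34a and 5 under miR-22. Under miR-29a, miR-145 and Let-7b 0 fell, and at an unadjusted p under 0.05 limma had 0, 0 and 1. The mean over the 11 genes was 10.68, 10.64 and 10.14 in miR-1 cells, 10.94, 11.25 and 10.92 in miR-365 cells and 11.47, 11.44 and 11.50 in miR-29a cells, against 11.49, 11.53 and 11.54 in control cells. In miR-29a cells the median difference of the 11 genes was −0.07. The part of proliferation in the decreases of Cdk6, Skp2, Cdk2, Ccnd2 and Ccne1 in these cells was not tested. Each of the 11 had a mean over the transfected arrays above 6.67, the median of probe sets with no listed gene. In the other 4 groups of mimic-treated cells the mean of the list ran from 10.99 to 11.47. Under miR-1 and miR-365 the decrease of the proliferation genes moved with that of the E cyclin genes, Cdk2 and Skp2. Under miR-34a and miR-22 it moved with that of the E cyclin genes and Skp2, and Cdk2 did not pass. The part of proliferation in those results was not tested.

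**Figure D3:**
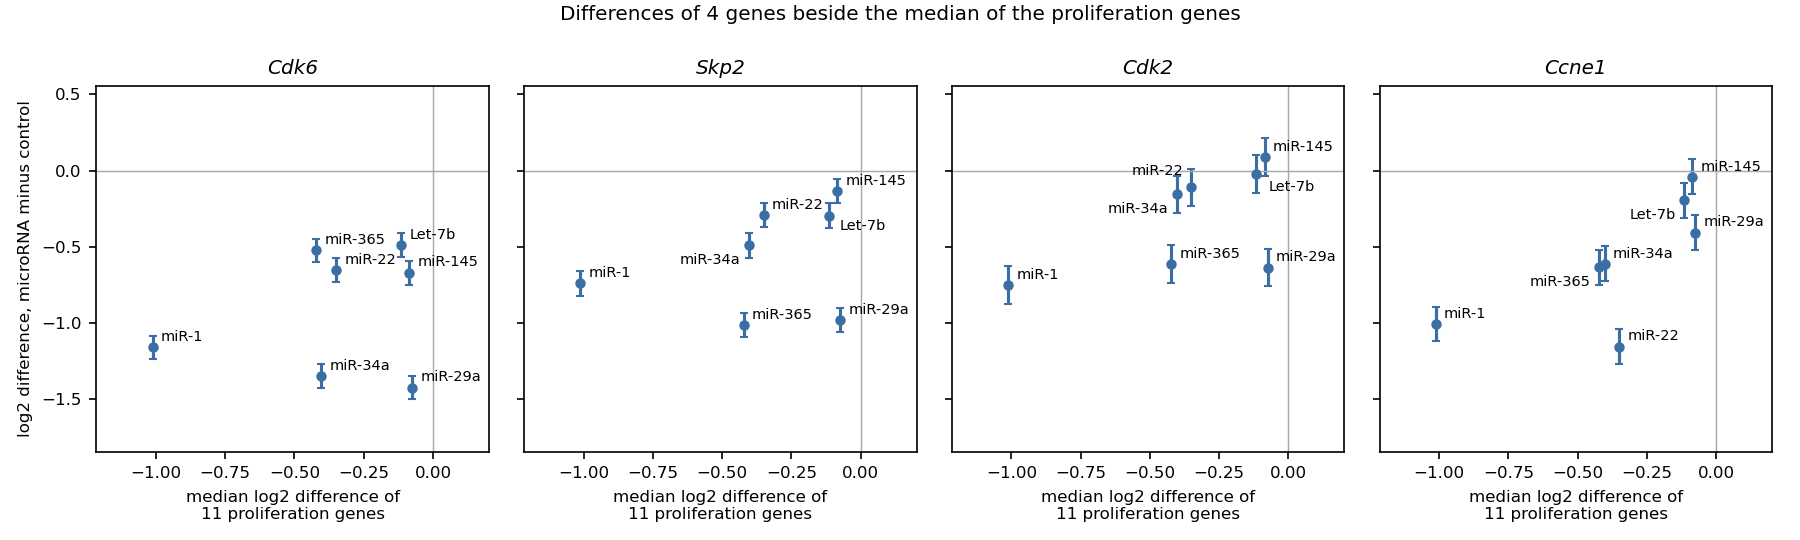
Log2 difference from the control (vertical axis, microRNA minus control) of Cdk6, Skp2, Cdk2 and Ccne1 against the median log2 difference of 11 proliferation genes (horizontal axis), 1 point for each microRNA. Bars are standard errors. miR-29a lies at −0.07 on the horizontal axis with Cdk6 at −1.43 and Skp2 at −0.98, and miR-1 at −1.01 with Cdk6 at −1.16.

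Markers of differentiated muscle moved as well. Of 10 myotube markers, 8 rose under miR-1, 7 under miR-34a, 5 under miR-22, 3 under miR-145 and 2 under miR-29a, and 0 under miR-365 and Let-7b, where 2 and 0 were higher at an unadjusted p under 0.05. Without miR-145 replicate 3, 1 marker passed under miR-145, Ckm, the muscle creatine kinase gene (0.79; adjusted p = 0.0448), and Neb and Atp2a1 did not (adjusted p = 0.0725 and 0.166), the 3 named after their values were seen. Under Let-7b 1 marker fell. The mean of the 10 markers was 10.65, 11.21 and 11.16 in miR-1 cells, 10.86, 10.86 and 10.78 in miR-34a cells and 10.44, 10.32 and 10.36 in miR-365 cells, against 10.25, 10.10 and 9.94 in control cells. In the other 4 groups the mean lay between 9.36 and 10.84. Under miR-365, where no marker was called and 2 were higher at an unadjusted p under 0.05, the median difference of the 10 markers was 0.18. The part of differentiation in the changes of the G1 genes was not tested.

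Other genes of the G1 pathway were taken from 5 lists. Of 6 measured CDK inhibitors, proteins that block the G1 kinases, 2 fell under miR-1, miR-29a and miR-365, 1 under miR-22 and miR-34a, and 0 under Let-7b and miR-145, and 0 rose under any, also at an unadjusted p under 0.05. By that measure 0 were lower under Let-7b and 1 under miR-145. Cdkn1a, also on this list, was not matched to a measured gene, so these counts say nothing about it. The 2 that changed were the INK4 genes Cdkn2c and Cdkn2d, whose products bind Cdk4 and Cdk6. Cdkn2c had differences of −1.09 ± 0.13 under miR-1, −0.71 ± 0.13 under miR-34a, −0.58 ± 0.13 under miR-29a, −0.52 ± 0.13 under miR-365 and −0.50 ± 0.13 under miR-22. Cdkn2d had −0.87 ± 0.14 under miR-365, −0.54 ± 0.14 under miR-29a and −0.40 ± 0.14 under miR-1. The miR-1 difference of Cdkn2d just passed in limma (adjusted p = 0.0444), with values that overlapped the control. Cdkn1b, the p27 gene, named here as the target of Skp2, passed under none, with differences between −0.17 and 0.13. The medians of the list lay between −0.17 and 0.03.

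Of 10 retinoblastoma family and E2F genes, 7 fell and 1 rose under miR-1, 4 fell and 0 rose under miR-34a, where 2 were higher at an unadjusted p under 0.05, 4 fell and 2 rose under miR-365, 3 fell and 2 rose under Let-7b, 3 fell and 1 rose under miR-22, 2 fell and 2 rose under miR-145, and 1 fell and 2 rose under miR-29a. E2f5, an E2F that acts mainly as a repressor, had −1.63 ± 0.09 under miR-1, −0.77 ± 0.09 under miR-34a, −0.76 ± 0.09 under Let-7b and −0.57 ± 0.09 under miR-145. E2f2, one of the activating E2Fs, fell by 0.98 ± 0.15 under Let-7b, 0.86 ± 0.15 under miR-29a and 0.65 ± 0.15 under miR-365. E2f3, also an activator, had −0.67 ± 0.11 under miR-34a and −0.52 ± 0.11 under miR-145. Without miR-145 replicate 3, both still passed under miR-145, E2f5 with −0.54 and E2f3 with −0.37 (adjusted p = 0.00397 and 0.0412). Rbl1, which encodes p107, had −1.35 ± 0.12 under miR-1 and −0.77 ± 0.12 under miR-365. Under miR-22 the largest changes were in E2f4 (−0.90 ± 0.09), a repressor E2F, and Tfdp1 (−0.63 ± 0.08), the partner subunit of E2Fs, and Rbl2, which encodes p130, rose under miR-29a (0.37 ± 0.10). The list's medians lay between −0.46 under miR-1 and 0.01 under miR-29a.

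Of 10 partners and relatives of the Skp2 ligase, 4 fell and 1 rose under miR-1 and under miR-22, 2 fell and 1 rose under miR-365, 2 fell under miR-34a, 1 fell under miR-145, and 0 changed under Let-7b and miR-29a, where 2 and 2 were lower and 1 and 0 higher at an unadjusted p under 0.05. Cks1b, whose product helps Skp2 to bind p27, had −0.62 ± 0.08 under miR-1 and −0.40 ± 0.08 under miR-34a. Cand1, a regulator of cullin ligases, had −0.64 ± 0.07 under miR-1. Skp1, which links F-box proteins to the ligase, had −0.46 ± 0.12 under miR-145 and −0.43 ± 0.12 under miR-22, where Fbxo4, another F-box gene, rose (0.48 ± 0.08). The Skp1 call under miR-145 was lost without miR-145 replicate 3 (−0.37; adjusted p = 0.121). Fbxw7, the F-box gene of the ligase that destroys cyclin E, differed in direction, with 0.40 ± 0.10 under miR-365 and −0.31 ± 0.10 under miR-34a, and Fbxo31, a further F-box gene, had −0.48 ± 0.08 under miR-365. The medians of this list stayed between −0.10 and −0.02, beside medians over all genes from −0.01 to 0.04.

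Among 5 activators of cyclin-dependent kinases, Cdc25a, a phosphatase that removes inhibitory phosphate from Cdk2, fell under miR-34a (−0.74 ± 0.09), miR-1 (−0.58 ± 0.09), miR-22 (−0.52 ± 0.09) and Let-7b (−0.46 ± 0.09). Cdk7, the kinase that activates other Cdks, rose under miR-1 (0.43 ± 0.10) and miR-365 (0.41 ± 0.10), and the chaperone gene Cdc37 rose under miR-365 (0.35 ± 0.10). No other activator passed under any microRNA, and the list's medians lay between −0.10 and 0.18. Of 6 genes of S phase entry, 5 fell under miR-1 and miR-365, 4 under miR-22, 3 under miR-34a, 1 under miR-145, and 0 under Let-7b and miR-29a, where 1 and 0 were lower at an unadjusted p under 0.05. The 1 under miR-145, Pcna, the polymerase clamp, did not pass without miR-145 replicate 3 (adjusted p = 0.138). Cdc6, which loads the replicative helicase, had −1.39 ± 0.16 under miR-1, −1.10 ± 0.16 under miR-365, −0.66 ± 0.16 under miR-22 and −0.65 ± 0.16 under miR-34a, and Cdt1, its partner in loading, −1.22 ± 0.21 under miR-1 and −0.68 ± 0.21 under miR-365. The medians of the list ran from −0.84 under miR-1 to −0.09 under Let-7b.

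The untransfected cells had 1 array each, so their differences have no replicate check and no test. In myotubes the E cyclin genes and Skp2 were much lower than in myoblasts. Ccne2 was 8.16 in myotubes, against 9.61 in myoblasts, 2.73-fold lower. Ccne1 was 9.59 against 10.82, 2.35-fold lower, and Skp2 9.50 against 10.70, 2.30-fold lower. Of all genes, 0.602% had a larger decrease than Ccne2, 1.09% than Ccne1 and 1.18% than Skp2. The myotube values of these 3 genes lay below all 24 transfected values.

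The D cyclin genes went the other way. Ccnd2 was 10.63 in myotubes and 9.83 in myoblasts, 1.74-fold higher. Ccnd3 was 12.31 and 11.85, a difference of 0.46, and Ccnd1 12.19 and 11.84, a difference of 0.35. Of all genes, 95.7% had a lower difference than Ccnd2, 88.9% than Ccnd3 and 84.6% than Ccnd1. The rises of Ccnd3 and Ccnd1 were thus less extreme among all genes than the decreases of the E cyclin genes and Skp2. Their kinase genes parted, with Cdk4 at 12.58 in myotubes and 13.09 in myoblasts (−0.51) and Cdk6 at 10.99 and 10.72 (0.27). Cdk2 was 10.01 in myotubes and 10.24 in myoblasts (−0.23). Past 1.5-fold, 3 of the 9 genes were lower, where 6.11% of all genes were, and 1 was higher, where 7.42% were. The median difference was −0.23 for the 9 genes and −0.02 for all genes.

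The Ccnd2 means of miR-34a and miR-22 cells lay between the myoblast and the myotube value, and those of the other 5 microRNAs and the control below both. The myotube value of Ccnd3 exceeded every transfected one, whose highest was 11.68. The mean of the proliferation genes was 9.95 on the myotube array and 11.49 to 11.54 in control cells, against 11.06 on the myoblast array. That of the myotube markers was 12.85 on the myotube array and 11.88 on the myoblast array. Control cells therefore had higher proliferation genes and lower myotube markers than the myoblast array. Their means were also above it in Cdk6, Ccne1, Skp2, Ccne2, Ccnd1 (0.21), Cdk4 (0.18) and Cdk2 (0.15). They were below it in Ccnd3 (−0.38) and Ccnd2 (−0.20). The part of proliferation and differentiation in these differences from the myoblast array was not tested.

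**Figure D4:**
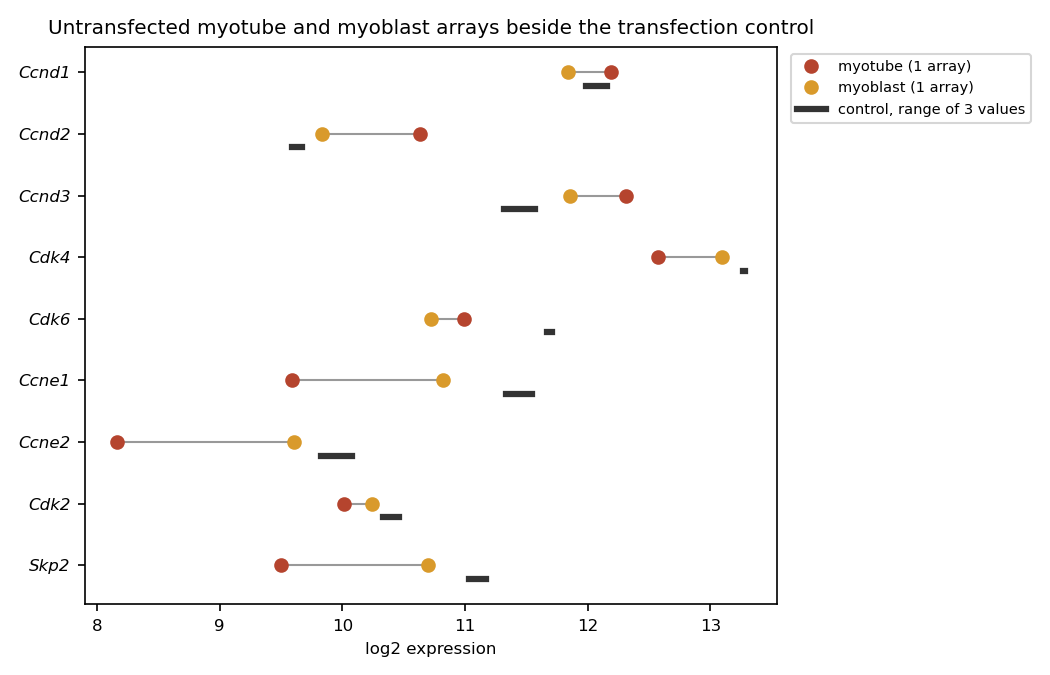
Log2 expression (horizontal axis) of the 9 genes on the single myotube (red) and myoblast (orange) arrays, joined by a line, with the range of the 3 control values as a black bar. Ccne1, Ccne2 and Skp2 have the longest lines with myotubes lower, from −1.20 to −1.45, Ccnd2 has the longest with myotubes higher, and the Cdk6 bar lies 0.97 above the orange point.

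Genes whose pattern was most like that of a G1 gene were sought over the 24 values among 13506 genes with a mean above the median of probe sets with no listed gene. The measure was Pearson's r over samples, 3 of each group, so it follows group means and carries no p. For Cdk6 the 5 highest were Ap1g1 (0.86), Bora (0.85), Chn2 (0.85), Eif5 (0.84) and Ptpa (0.83). Ccnd1 was most like Gltp (0.92), Lpcat1 (0.89), Ifrd2 (0.88), Mthfd1 (0.88) and 1700037H04Rik (0.87). For Ccnd2 they were Ak4 (0.87), Agpat3 (0.86), Dnmt3a (0.86), Tspyl5 (0.85) and Nit2 (0.84), and for Ccne1 Rad9a (0.91), Cmc2 (0.90), Haus8 (0.89), Mtbp (0.88) and Rfc1 (0.88). The genes most like Skp2 were Cdk2 (0.88), Dram1 (0.88), Cdkn2d (0.86), Luzp1 (0.83) and Tinf2 (0.83), a list that holds the kinase gene Cdk2 and the inhibitor gene Cdkn2d.

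Because E2F factors are known to control several of these genes, the promoter windows in RefSeq (GRCm38.p6), from 250 bases before to 50 after a start, were searched on both strands for 4 E2F-type motifs of 8 bases, which were TTTCGCGC, TTTGGCGC, TTTCCCGC and TTTGCCGC. None of the 4 is part of another. Windows were matched for 6 of the 9 genes, 8 windows in all. One of them, that of Cdk2, held a match, and of all 32851 windows 2.26% did. The Cdk2 window at chr10:128705002-128705301, minus strand, is shown with the match in capitals, which is TTTCCCGC read on the opposite strand and begins at position −140 from the start. A match is a description of the letters, not a sign of binding.
Cdk2 promoter: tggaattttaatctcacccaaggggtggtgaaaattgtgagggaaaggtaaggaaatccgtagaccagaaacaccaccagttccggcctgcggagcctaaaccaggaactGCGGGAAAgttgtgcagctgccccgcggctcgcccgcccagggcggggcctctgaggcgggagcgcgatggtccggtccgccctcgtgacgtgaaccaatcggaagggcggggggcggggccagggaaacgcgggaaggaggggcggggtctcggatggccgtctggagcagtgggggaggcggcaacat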

How the data were processed

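The authors deposited normalized log2 values of 29 arrays, which were made with RMA in Affymetrix Expression Console 1.1, per the submitters' processing notes. Filters and a genome build are not given in the sources used here. RMA equalises array distributions, so a shift of all RNA would not show. Probe sets with 1 symbol numbered 21789 of 35556, another 1621 had several and 12146 no listed gene, and the one with the highest mean over transfected arrays stood for each of 19938 genes, 999 of which had more than 1. Of 21698 symbols checked against RefSeq, 0 changed.

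Control arrays were averaged with the technical repeat of their number (Pearson's r 0.998 over genes in each of the 3), which gave 24 values in 8 groups. limma 3.58.1 in R 4.3.3 fitted 1 model per gene with a variance trend and no other term. Contrasts were each microRNA minus control, minus the mean of the other 6, and the 21 pairs, with Benjamini-Hochberg adjustment over all genes within a contrast, a threshold of 0.05 and 2-sided tests. Errors are standard errors of the model. Myotube and myoblast arrays stayed out. In simulated miR-1 data with 200 changed genes among 19938, limma called 81% of those changed by 0.5 and 100% of those changed by 1 on the log2 scale, with 0 in the wrong direction and 10 unchanged genes called. The simulated noise was independent between values, with no effect of replicate number and no library that stood apart. In the real data 4722 genes were called under miR-1. The simulated shares are thus a check of the code and do not give the power or false calls in these data.

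The genes, lists and tests were chosen with earlier results of these data known. Named are all 9 genes, at most 2 called members of a pathway list per microRNA, by size, and the 5 most alike genes of Cdk6, Ccnd1, Ccnd2, Ccne1 and Skp2. Replicate numbers were checked on residuals, where the mean r was 0.240 for the same number and −0.120 for others, and 23 of 24 values correlated best with their own number. The residuals were centred within each group of 3, so the mean r for other numbers largely follows from that for the same number. All 3 pairs with the control exceeded 0.1 for miR-22, miR-29a, miR-34a and miR-365. For Let-7b, miR-1 and miR-145 they did not. Alternatives were first control arrays only, control repeats as a random block, a replicate block, 2-group models, no variance trend, a filter that leaves out the lowest 40% of genes, further quantile normalization, median centring, averaged probe sets, and each replicate left out. Fits without miR-145 replicate 3 for the other 6 microRNAs, the microRNA pairs and the lists under miR-145 were added after its interferon genes were seen. Figures used matplotlib 3.10.9.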

Additional observations from a re-analysis of the deposited data

How the results depend on the processing

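Cdk6 kept its call under all 7 microRNAs in every alternative, with ranges of −1.53 to −1.37 under miR-29a, −1.40 to −1.31 under miR-34a, −1.21 to −1.11 under miR-1, −0.72 to −0.64 under miR-145, −0.72 to −0.62 under miR-22, −0.56 to −0.50 under miR-365 and −0.52 to −0.46 under Let-7b. Of 999 differences of a gene from the control under an alternative, 932 kept direction and side of the threshold, 23 lost and 18 gained the call and 26 changed sign, the last only where the main value had not passed. The calls that were lost are those of Skp2 under Let-7b and miR-22, Ccne1 under miR-29a, Ccnd2 under miR-34a and miR-365, and Cdk4 under miR-145. Those gained concern Ccnd3 under Let-7b, Ccnd1 and Cdk4 under miR-1 and Ccnd2 under miR-22, which passed with the replicate block for Ccnd3 (adjusted p = 0.00185), Ccnd1 (0.00778) and Ccnd2 (0.00207), and for Cdk4 with further quantile normalization (0.0416). Of 306 differences from the mean of the other 6, 272 kept direction and side, 17 lost and 3 gained the call and 14 changed sign. The calls lost belong to Ccnd1, Ccnd3, Ccne2 and Cdk2 under Let-7b, Skp2 under miR-1, Cdk2 under miR-29a, Cdk4 under miR-34a, Ccnd3 under miR-145 and Ccnd2 and Cdk2 under miR-365, each on leaving out 1 replicate. Those gained are Cdk2 under miR-22 with the replicate block, Ccne1 under miR-29a without replicate 2 (0.0346) and Cdk4, lower, under miR-145 without replicate 1 (0.0237). The causes were not tested.

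With the replicate block, 3298 genes were called under Let-7b, 3142 under miR-29a and 2444 under miR-145, against 2177, 2058 and 1365 without it. Of the 9 genes miR-145 had 1 called, Cdk6, without the variance trend and in the 2-group model, where 654 genes passed in all. Leaving out 1 replicate in turn gave these ranges of genes called among the 9 and among all: Let-7b 1 to 3 and 1379 to 2322; miR-1 5 to 6 and 3433 to 4923; miR-22 3 to 5 and 1681 to 3090. For the others they were 4 to 5 and 1330 to 2236 under miR-29a, 5 to 6 and 1482 to 2482 under miR-34a, 1 to 2 and 727 to 1410 under miR-145, 7 to 8 and 2811 to 4218 under miR-365.

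Signs that turned belonged to differences near 0. With first control arrays only, Ccnd2 under miR-1 was 0.015 and Ccnd3 under miR-22 −0.0056. With median centring, Ccnd2 under miR-1 was 0.0070, Ccnd1 under miR-22 −0.018, Ccnd3 under miR-22 −0.044 and under miR-29a −0.0017, and Ccne2 under miR-145 −0.043. With single replicates left out, the ranges that crossed 0 against the control were Ccnd1 under Let-7b (−0.13 to 0.077), Cdk2 under Let-7b (−0.064 to 0.033), Ccnd2 under miR-1 (−0.11 to 0.071), Ccnd1 under miR-22 (−0.033 to 0.13), Ccnd3 under miR-22 (−0.071 to 0.075), Ccnd3 under miR-29a (−0.047 to 0.081), Ccne1 under miR-145 (−0.11 to 0.042), Ccne2 under miR-145 (−0.074 to 0.062) and Ccnd3 under miR-365 (−0.10 to 0.041). Against the mean of the other 6 they were Ccnd2 under Let-7b (−0.14 to 0.019), Ccnd1 under miR-1 (−0.14 to 0.12), Ccnd3 under miR-1 (−0.10 to 0.0064), Cdk4 under miR-1 (−0.042 to 0.025), Cdk4 under miR-29a (−0.010 to 0.019), Ccnd3 under miR-34a (−0.12 to 0.011), Ccne1 under miR-34a (−0.065 to 0.0071) and Ccnd3 under miR-365 (−0.036 to 0.078).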

Other observations

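The genes that were lower than the control under all 7 microRNAs, in limma at an adjusted p under 0.05, were Cdk6, Grk6, Naa40, Ndc1 and Tlcd3a, and the 4 beside Cdk6 are named here after their values were seen. The differences on the log2 scale lay between −1.68 and −0.49 in Grk6, between −0.74 and −0.37 in Naa40, between −0.75 and −0.31 in Ndc1 and between −0.98 and −0.23 in Tlcd3a, with the highest adjusted p of the 7 at 0.0298, 0.0424, 0.0124 and 0.00757. All 21 microRNA values of each of the 5 genes lay below the 3 control values, and all 7 comparisons share those values. As with Cdk6, the control mean was above the single myoblast array in each of the 4. The 4 were picked for lying below these control values, which favours genes with high control values. The share of all genes with the control mean above that array was not counted. Grk6 was 10.33 in control cells and 10.03 in myoblasts, Naa40 10.06 and 9.38, Ndc1 10.90 and 10.37, and Tlcd3a 11.65 and 11.08. Without miR-145 replicate 3, Naa40 did not pass under miR-145 (adjusted p = 0.154) and the other 4 genes passed under all 7. The part of the control oligonucleotide in these values was not tested.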
